A study of Homo sapiens with 18 samples.

Results

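PEG10 and 9 other imprinted genes (SGCE, IGF2, H19, MEST, PLAGL1, NNAT, NDN, DLK1 and MEG3) were followed through 18 RNA sequencing libraries of cultured human cells. The 10 genes were found by their symbols among 40916 symbols in the count tables. PEG10 was chosen by its measured fall in irradiated HCT116 cells, where it is among the strongest, so that contrast is described here for all 10 genes without a test. The other 9 were added as well-known imprinted genes. MCF10A is a non-tumorigenic mammary epithelial line, used here with a histone H2B-GFP label, and HCT116 is a colorectal carcinoma line, used unlabelled in a form described as p53-null. Each line was cultured alone and in a mixture described as holding 50% of each line, and each was studied without irradiation (NIR) and after 10 Gy of ionising radiation (IR). Each of the 6 groups had 3 biological replicates, numbered from 1 to 3 by the labels. The labels place the harvest at day 2 and the design text places it at 72 h after irradiation, and the tables do not settle which holds.

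Imprinted genes are transcribed mainly from the copy inherited from one parent. DNA methylation set down in the germ line marks the parental copies, and the mark is copied at each cell division by the maintenance methylation machinery. Many imprinted genes lie in clusters that share a control region, such as PEG10 with SGCE, IGF2 with H19, and DLK1 with MEG3. Gene counts of this kind sum both parental copies and all start sites, so they give the level of a gene and not its imprint.

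Library totals ranged from 25737818 to 40839835 counts, and levels are given as counts per 1000000 of the library total (CPM). CPM is not scaled to gene length, so a level is compared between groups and not between genes. Mitochondrially encoded genes took 5.10 to 5.32% of counts in MCF10A NIR libraries and 6.06 to 6.35% in MCF10A IR libraries. Their share was 8.42 to 8.75% in HCT116 NIR, 11.5 to 12.3% in HCT116 IR, 8.37 to 8.73% in mixed NIR and 12.0 to 12.7% in mixed IR libraries. All 10 markers of basal mammary cells were at 1 CPM or more in MCF10A NIR libraries, where they summed to 11941 to 12712 CPM. The same sum was 22291 to 22804 CPM in MCF10A IR, 352 to 459 CPM in HCT116 NIR, 575 to 638 CPM in HCT116 IR, 478 to 524 CPM in mixed NIR and 788 to 879 CPM in mixed IR libraries. TP63, a transcription factor that defines basal epithelium, was at 0 in HCT116 NIR libraries. In the median marker the mixed NIR libraries reached 1.2% of the MCF10A NIR level, against 0.354% for HCT116 NIR, and the mixed IR libraries reached 2.12% of the MCF10A IR level, against 0.526% for HCT116 IR. By the basal markers the mixed libraries thus lay close to HCT116 and far from the 50% in their description. Among 10 intestinal or simple epithelial markers, 5 were at 1 CPM or more in HCT116 NIR libraries and CDX1 was at 0. In MCF10A NIR libraries 3 were at 1 CPM or more. Their sum was 2859 to 3186 CPM in HCT116 NIR, 2428 to 2485 CPM in mixed NIR and 292 to 338 CPM in MCF10A NIR. After irradiation it was 7384 to 8327 CPM in HCT116, 5121 to 5513 CPM in mixed cultures and 388 to 438 CPM in MCF10A. By this sum the mixed libraries lay below HCT116 and above MCF10A.

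RefSeq start-site windows on GRCh38.p14, each 300 bases long with 250 bases before and 50 after an annotated start, were listed for 5 of the 10 genes: MEST, PLAGL1, H19, MEG3 and NDN. PEG10, SGCE, IGF2, NNAT and DLK1 were not matched. The 4 windows below are shown because CG dinucleotides, the bases that carry imprinting methylation, range from few to many among them. They also take in MEST, which was counted in every library, and NDN, which was counted in none. CG pairs are in capitals, and each sequence runs 5′ to 3′ on the strand of the gene.
MEST upstream start, chr7:130485925-130486224, plus strand: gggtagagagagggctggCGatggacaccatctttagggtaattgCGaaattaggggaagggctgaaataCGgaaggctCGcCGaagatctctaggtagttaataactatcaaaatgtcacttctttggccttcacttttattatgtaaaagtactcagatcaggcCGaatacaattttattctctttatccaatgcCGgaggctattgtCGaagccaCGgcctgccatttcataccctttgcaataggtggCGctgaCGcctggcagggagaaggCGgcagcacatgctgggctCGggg
MEST downstream start, chr7:130491835-130492134, plus strand: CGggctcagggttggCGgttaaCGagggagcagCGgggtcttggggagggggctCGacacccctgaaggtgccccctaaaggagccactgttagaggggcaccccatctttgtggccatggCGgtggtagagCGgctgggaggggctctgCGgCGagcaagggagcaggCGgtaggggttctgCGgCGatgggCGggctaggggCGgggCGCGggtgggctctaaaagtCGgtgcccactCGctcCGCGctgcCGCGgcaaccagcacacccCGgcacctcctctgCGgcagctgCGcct
H19, chr11:2001217-2001516, minus strand: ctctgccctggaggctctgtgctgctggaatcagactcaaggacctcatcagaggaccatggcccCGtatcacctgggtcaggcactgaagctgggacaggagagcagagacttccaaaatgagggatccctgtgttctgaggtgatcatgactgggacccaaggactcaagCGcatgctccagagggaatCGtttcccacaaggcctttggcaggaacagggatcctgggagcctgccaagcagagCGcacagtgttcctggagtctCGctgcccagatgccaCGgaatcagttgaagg
NDN, chr15:23687256-23687555, minus strand: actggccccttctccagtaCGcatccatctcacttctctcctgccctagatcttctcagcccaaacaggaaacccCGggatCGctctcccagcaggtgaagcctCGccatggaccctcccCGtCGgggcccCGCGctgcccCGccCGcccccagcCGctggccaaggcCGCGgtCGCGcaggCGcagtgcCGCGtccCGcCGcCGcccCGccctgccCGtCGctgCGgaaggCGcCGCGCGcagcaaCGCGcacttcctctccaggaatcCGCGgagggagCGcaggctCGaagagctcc
MEST had 5 listed windows, and those shown hold the fewest and the most CG pairs among them. They held 13 at the upstream start and 25 at the downstream start, and 51.7% and 32.0% of 35116 listed windows held as many or more. The PLAGL1 windows, not shown, held from 2 to 39. The H19 window held 6 (66.3% of windows held as many) and the NDN window held 35 (14.1%), beside a median of 14 over all windows. The count is of the motif CG, which reads the same on both strands. These counts describe the letters of each window and not its methylation, which was not measured.

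PEG10, a paternally expressed gene that descends from a retrotransposon and encodes gag-like and pol-like proteins, was counted in all 18 libraries. GENCODE places it on GRCh38 at chr7:94656325-94669695, plus strand. In MCF10A its level was 109.9, 103.8 and 112.0 CPM without irradiation and 65.3, 62.0 and 63.6 CPM after it. The groups did not overlap, and the mean fell from 108.6 ± 4.23 to 63.6 ± 1.68 CPM (SD, n = 3 each), a log2 fold change of -0.79 (SE 0.052, adjusted p = 3e-13). Mixed cultures had 87.6, 102.4 and 89.1 CPM without irradiation and 21.0, 24.3 and 22.2 CPM after it. These groups were also apart, and the log2 fold change was -2.08 (SE 0.081, adjusted p = 2.5e-14), a 4.21-fold fall. In HCT116, the contrast that chose the gene, the level went from 80.1, 84.9 and 83.4 CPM to 13.6, 15.0 and 13.8 CPM, which is 17.1% of the non-irradiated mean and a log2 fold change of -2.54 (SE 0.080). Ordered by mean, the groups ran from MCF10A NIR through mixed NIR, HCT116 NIR, MCF10A IR and mixed IR to HCT116 IR, and no group overlapped the next in this order. A level relative to the library total does not separate fewer PEG10-expressing cells from less PEG10 RNA per cell.

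**Figure D1:**
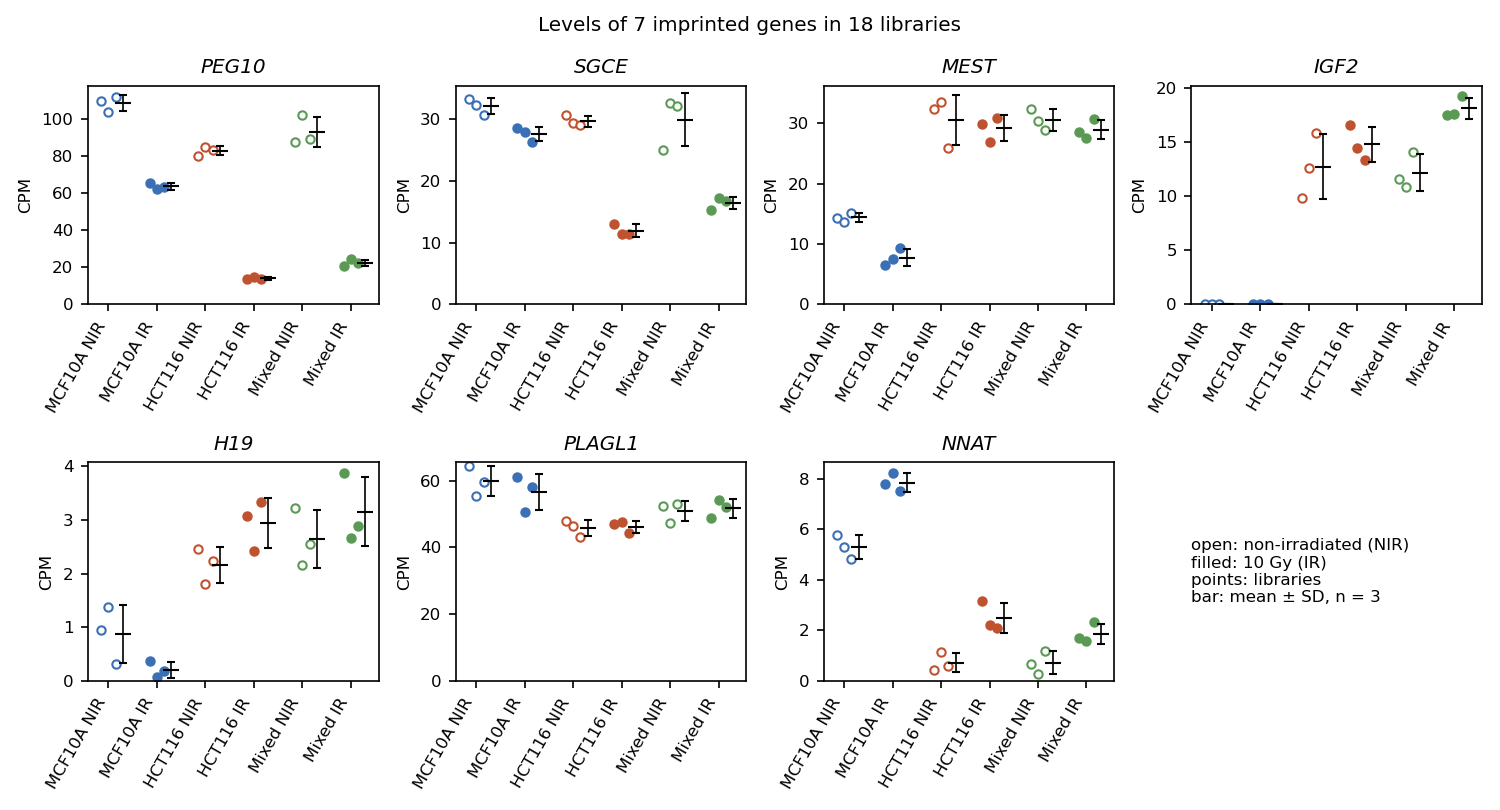
PEG10 and the other measured imprinted genes in each library, in CPM, with points for the 3 libraries and a bar for the mean of each of the 6 groups. PEG10 falls from 108.6 to 63.6 CPM in MCF10A, from 93.0 to 22.5 CPM in mixed cultures and from 82.8 to 14.1 CPM in HCT116.

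The fall in PEG10 differed in size between cultures. The test of the difference, which uses no HCT116 monoculture, gave a further -1.23 (SE 0.097, adjusted p = 3.5e-10) on the log2 scale in mixed cultures beyond the MCF10A response. Among genes with at least 10 CPM before irradiation, PEG10 ranked 4 of 9770 from the lowest log2 fold change in mixed cultures and 625 of 9179 in MCF10A. In HCT116, where the rank is what chose it, it stood at 3 of 9855. The mean basal marker sum went from 495 to 821 CPM in mixed cultures, from 12284 to 22613 CPM in MCF10A alone and from 420.4 to 598 CPM in HCT116 alone, so it was higher after irradiation within each line alone as well. The part of cell composition in the PEG10 result was not tested. The share of mitochondrial counts also rose in all 3 culture types, and PEG10 was called in the same direction in a fit without these genes.

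SGCE encodes epsilon-sarcoglycan, a membrane protein of the dystrophin-associated complex, and is also paternally expressed. It lies head to head with PEG10 (chr7:94524204-94656572, minus strand), with 247 bases between the annotated starts, so the 2 genes overlap at their 5′ ends. The library kit marks strand, and the strand setting used in counting is not given in the sources used here. SGCE levels in MCF10A were 33.2, 32.3 and 30.6 CPM without irradiation and 28.5, 27.9 and 26.3 CPM after it. The groups were apart by little, with a log2 fold change of -0.24 (SE 0.078, adjusted p = 0.01). That call was lost with upper-quartile scaling (-0.15, adjusted p = 0.094) and without MCF10A IR replicate 3 (-0.21, adjusted p = 0.052). Mixed cultures went from 24.9, 32.5 and 32.1 CPM to 15.3, 17.2 and 16.7 CPM. All 3 irradiated mixed libraries were below all non-irradiated ones, and the log2 fold change was -0.89 (SE 0.104, adjusted p = 3.6e-07). HCT116 went from 30.5, 29.2 and 29 CPM to 13.1, 11.3 and 11.4 CPM, a log2 fold change of -1.30 (SE 0.10) given as a description. The response of mixed cultures differed from that of MCF10A by -0.60 (SE 0.136, adjusted p = 0.001), the same direction as for PEG10. In each of the 3 culture types the fitted fall of SGCE was smaller than that of PEG10, and the difference between the genes was not tested.

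The other genes around PEG10 on chromosome 7 moved in both directions or did not pass the test. Of 16 listed genes within about 1103 kb of PEG10, itself and SGCE included, 9 passed the filter on low counts in MCF10A. Of these, PEG10 and SGCE were called lower and PON2 and DYNC1I1 higher, 4 of 9 beside 55.4% of all genes. DYNC1I1 passed that filter only through the irradiated libraries, where it is high, so its call carries no weight. In mixed cultures 12 were tested, of which PEG10, SGCE and BET1 were lower and PON2 was higher, 4 of 12 beside 49.4% of all genes. GNG11, BET1 and PDK4 in MCF10A, and CALCR, TFPI2, GNGT1, PON1, PON3 and PDK4 in mixed cultures, were tested and not called. COL1A2 and ASB4 were too low to test in either. PON2, a paraoxonase, rose by 0.20 (SE 0.047, adjusted p = 0.00067) in MCF10A and by 0.41 (SE 0.066, adjusted p = 2.7e-05) in mixed cultures, from 51.0 ± 1.64 to 68.8 ± 2.84 CPM (SD, n = 3 each). BET1, a vesicle transport protein named here after its values were seen, changed by -0.25 (SE 0.088, adjusted p = 0.024) in mixed cultures. CASD1, which overlaps SGCE, had -0.12 in MCF10A (adjusted p = 0.31) and -0.11 in mixed cultures (adjusted p = 0.5), and neither passed the test. PPP1R9A, the next listed gene beyond PEG10 and reported as maternally expressed in some tissues, had -0.22 (adjusted p = 0.62) and 0.10 (adjusted p = 0.28). The motor protein gene DYNC1I1 was low in every group, with 0.360 ± 0.300 CPM in MCF10A NIR and 1.08 ± 0.308 CPM in MCF10A IR (SD, n = 3 each). Its rise of 1.55 (SE 0.526, adjusted p = 0.014) lost its call without MCF10A NIR replicate 2 (1.21), MCF10A NIR replicate 3 (1.29) or MCF10A IR replicate 3 (1.31), and reached 2.50 without MCF10A NIR replicate 1.

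**Figure D2:**
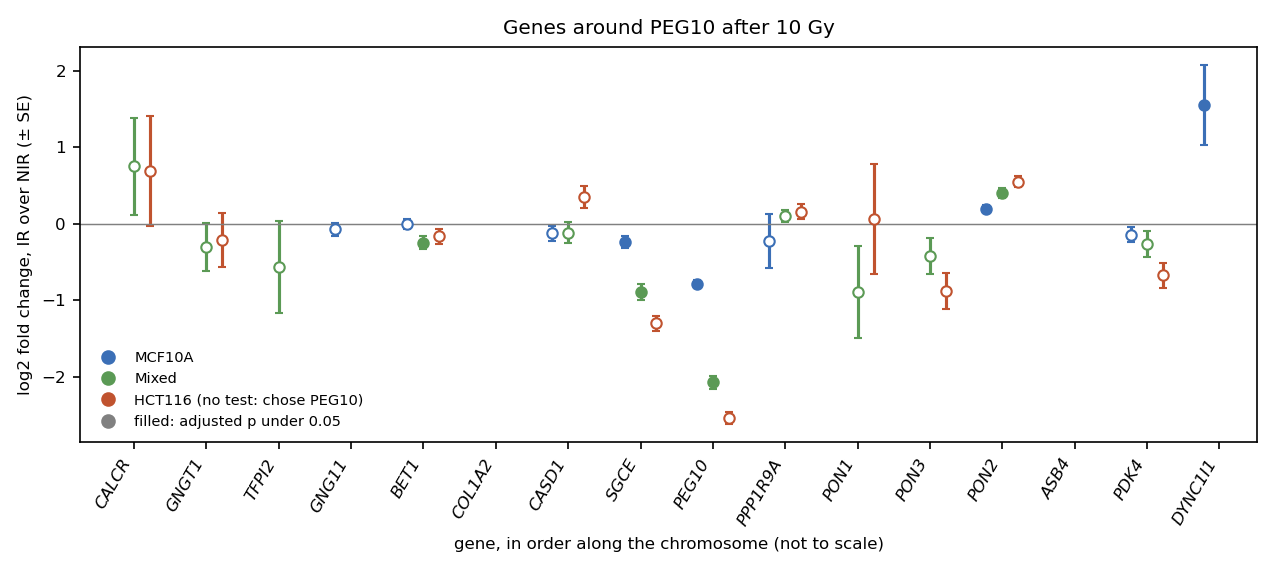
Log2 fold change after irradiation of the genes around PEG10, in order along chromosome 7 and not to scale, in MCF10A, mixed and HCT116 cultures, with error bars of 1 SE. PEG10 lies lowest in mixed cultures (-2.08), followed by PON1, whose -0.90 has an SE of 0.605, and by SGCE (-0.89), and CASD1 and PPP1R9A on either side lie near 0.

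MEST, a paternally expressed gene that encodes a protein of the alpha/beta hydrolase fold, fell in MCF10A and not detectably in the other cultures. GENCODE places it at chr7:130486171-130506465, plus strand, overlapped on the other strand by MESTIT1 and COPG2. In MCF10A it went from 14.3, 13.7 and 15.2 CPM to 6.47, 7.48 and 9.32 CPM. Every irradiated library was below every non-irradiated one, and the log2 fold change was -0.90 (SE 0.129, adjusted p = 8.8e-07). Mixed cultures had 32.4, 30.3 and 28.8 CPM without irradiation and 28.5, 27.6 and 30.7 CPM after it. These groups overlapped, and -0.10 (SE 0.081, adjusted p = 0.32) did not pass the test. HCT116 had 32.4, 33.5 and 25.8 CPM and then 29.9, 26.8 and 30.9 CPM, also overlapping, with a log2 fold change of -0.06 (SE 0.098). The response of mixed cultures lay 0.85 (SE 0.151, adjusted p = 7e-05) above that of MCF10A, the opposite side to PEG10 and SGCE. Counts from all starts, those shown above included, are summed in these levels.

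IGF2 and H19 share a domain on chromosome 11 and are expressed from opposite parental copies, IGF2 from the paternal and H19 from the maternal one. IGF2 encodes a secreted growth factor that signals through the IGF1 and insulin receptors, and GENCODE lists it in 2 entries within chr11:2129112-2158658, minus strand, overlapped by INS-IGF2 and IGF2-AS. MCF10A had 1 IGF2 count in 1 of 3 NIR libraries and 0 in all 3 IR libraries, and a count of 0 there allows a level of up to 0.0338 CPM. HCT116 had 9.84, 12.6 and 15.8 CPM without irradiation and 16.5, 14.4 and 13.4 CPM after it, which overlapped (log2 fold change 0.23, SE 0.144). Mixed cultures went from 11.6, 10.8 and 14.1 CPM to 17.5, 17.6 and 19.2 CPM. The mixed groups were apart, and IGF2 rose by 0.54 (SE 0.112, adjusted p = 0.00038). From summed counts, IGF2 was 1236-fold higher in HCT116 NIR than in MCF10A NIR libraries (95% exact interval 221 to 48871) and 1209-fold higher in mixed NIR libraries (217 to 47803). The width comes from the single MCF10A count, and both ratios share it. The response difference for IGF2 rests on that count and did not pass the test (adjusted p = 0.34).

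H19, a long non-coding RNA that hosts a microRNA (chr11:1995176-2001470, minus strand), was low in all groups. MCF10A NIR libraries had 0.941, 1.38 and 0.307 CPM (32, 49 and 9 counts) and MCF10A IR libraries had 0.367, 0.0730 and 0.176 CPM (10, 2 and 6 counts). The groups overlapped: replicate 3 of the first was below replicate 1 of the second. The fitted log2 fold change was -2.12 (SE 0.618, adjusted p = 0.0046), and it did not pass without MCF10A NIR replicate 2 (-1.62, adjusted p = 0.063). Mixed cultures had 3.22, 2.16 and 2.56 CPM before and 3.88, 2.67 and 2.90 CPM after irradiation, which overlapped and did not pass the test (0.23, SE 0.236, adjusted p = 0.44). HCT116 values were 2.46, 1.80 and 2.24 CPM and then 3.08, 2.42 and 3.34 CPM, a log2 fold change of 0.44 (SE 0.255). The response difference between mixed cultures and MCF10A was 2.42 (SE 0.636, adjusted p = 0.004).

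PLAGL1 encodes a zinc finger transcription factor with growth-restraining activity, expressed from the paternal copy in many tissues (chr6:143940300-144064599, minus strand, overlapping HYMAI). MCF10A had 64.4, 55.4 and 59.7 CPM without irradiation and 61.1, 50.5 and 58.1 CPM after it. Mixed cultures had 52.3, 47.3 and 53 CPM and then 48.7, 54.3 and 52.2 CPM. HCT116 had 47.8, 46.4 and 43.2 CPM and then 47.0, 47.5 and 44.2 CPM. Irradiated and non-irradiated libraries overlapped in all 3 culture types. The log2 fold changes were -0.10 in MCF10A (SE 0.068, adjusted p = 0.21), -0.0016 in mixed cultures (SE 0.072, adjusted p = 0.99) and 0.02 in HCT116 (SE 0.075).

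NNAT encodes neuronatin, a small membrane proteolipid, is paternally expressed, and lies within BLCAP on the opposite strand (chr20:37521206-37523693, plus strand). It rose after irradiation where it was tested. MCF10A went from 5.76, 5.30 and 4.82 CPM to 7.79, 8.24 and 7.50 CPM. The groups were apart, with a log2 fold change of 0.54 (SE 0.149, adjusted p = 0.0027). Mixed cultures went from 0.680, 0.288 and 1.2 CPM to 1.70, 1.58 and 2.32 CPM, again apart (1.33, SE 0.409, adjusted p = 0.0099). That call was lost without mixed IR replicate 3 (1.15, adjusted p = 0.057). HCT116 went from 0.434, 1.15 and 0.579 CPM to 3.17, 2.20 and 2.10 CPM, a log2 fold change of 1.79 (SE 0.374). Mixed and MCF10A responses differed by 0.84 (SE 0.390, adjusted p = 0.1), which did not pass, and passed only without mixed NIR replicate 3 (1.47, adjusted p = 0.0049). BLCAP, its host gene, rose with it: from 171 ± 5.37 to 235 ± 4.19 CPM in MCF10A (0.44, SE 0.043, adjusted p = 1e-09) and from 32.3 ± 1.69 to 87.6 ± 6.37 CPM in mixed cultures (1.42, SE 0.074, adjusted p = 1.5e-12; SD, n = 3 each). Whether reads of BLCAP were counted to NNAT was not tested.

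NDN, DLK1 and MEG3 were at or near 0 and passed no filter on low counts. NDN, a growth-suppressing paternally expressed gene of the Prader-Willi region (chr15:23685400-23687330, minus strand), had 0 counts in all 18 libraries, which allows a level of up to 0.0051 CPM over all of them. DLK1, a paternally expressed gene for a Notch ligand-like protein (chr14:100725705-100738224, plus strand), had 16 counts spread over 8 libraries, with at most 2 in any library. MEG3, the maternally expressed non-coding RNA of the same domain (chr14:100779410-100861031, plus strand), had 26 counts in 7 libraries. MEG3 counts in HCT116 were 0, 0 and 0 without irradiation and 4, 8 and 4 after it, 0.196 CPM at the highest, and were not tested. The limits and intervals cover counting error only. Of counts from 1 to 10 in the tables, 68.3% were even, and the limits treat each count as independent.

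Counted together, 5 of the 6 imprinted genes tested in MCF10A were called: NNAT higher, and PEG10, SGCE, MEST and H19 lower. Over all genes tested in MCF10A, 55.4% were called in either direction, 26.2% higher and 29.2% lower. In mixed cultures 4 of 7 were called, IGF2 and NNAT higher and PEG10 and SGCE lower, beside 49.4% of all genes, 24.0% higher and 25.4% lower. For the response difference 4 of 7 were called, H19 and MEST on the higher side and PEG10 and SGCE on the lower, beside 33.8% of all genes, 19.5% higher and 14.3% lower. These shares of all genes are large, and a call alone does not set the members apart. In HCT116, 52.5% of all genes were past the same threshold, 25.3% higher and 27.2% lower, and nothing is read from the members' counts there.

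**Figure D3:**
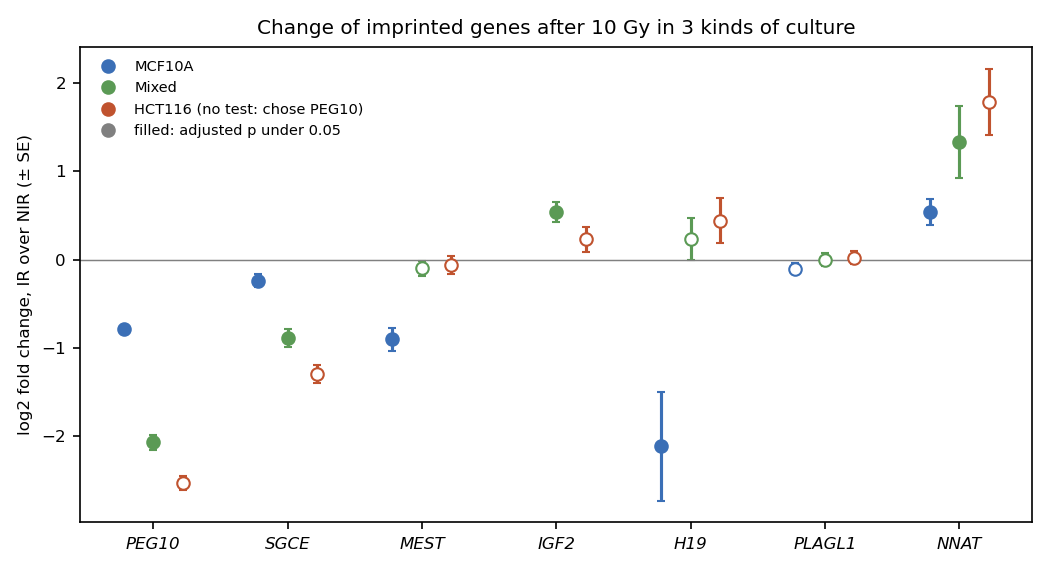
Log2 fold change after irradiation of each measured imprinted gene in MCF10A, mixed and HCT116 cultures, with error bars of 1 SE; filled points passed the test at an adjusted p of 0.05 and open points did not or were not tested. PEG10 lies lowest in mixed and HCT116 cultures (-2.08 and -2.54), PLAGL1 lies near 0 in all 3, and NNAT is above 0 in all 3.

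The non-irradiated lines also differed in these genes. Comparisons of HCT116 and of mixed cultures with MCF10A share the MCF10A NIR libraries, so the values are set side by side only, and the HCT116 NIR libraries also entered the contrast that chose PEG10. IGF2 passed the filter on low counts only through the groups where it is high, which fixed its call, so it is left out of these counts. The other 5 members tested besides PEG10 were called between HCT116 NIR and MCF10A NIR, 2 higher and 3 lower, beside 74.8% of all genes, 38.7% higher and 36.1% lower. With PEG10, 6 were tested and called between mixed NIR and MCF10A NIR, 2 higher and 4 lower, beside 73.8% of all genes, 37.9% higher and 36.0% lower. MEST was 0.89 higher in HCT116 (SE 0.106, adjusted p = 5.7e-07) and 0.90 higher in mixed cultures (SE 0.095, adjusted p = 1.1e-07). NNAT was lower in both, at -3.07 (SE 0.311, adjusted p = 7.1e-08) and -3.04 (SE 0.343, adjusted p = 2.8e-07). PLAGL1 had -0.58 (SE 0.072, adjusted p = 8.7e-07) and -0.42 (SE 0.074, adjusted p = 6.5e-05). H19 had 1.08 (SE 0.417, adjusted p = 0.026) and 1.38 (SE 0.403, adjusted p = 0.0051), and the first lost its call without replicate 1 or 3 of either group (0.68 to 1.11). SGCE had -0.31 (SE 0.080, adjusted p = 0.0018) and -0.28 (SE 0.10, adjusted p = 0.018), and both calls were lost with upper-quartile scaling (-0.11, adjusted p = 0.22, and -0.10, adjusted p = 0.39). The second was also lost without MCF10A NIR replicate 1 (-0.27), MCF10A NIR replicate 2 (-0.27) or mixed NIR replicate 1 (-0.15). PEG10 was lower in mixed cultures (-0.40, SE 0.066, adjusted p = 2.5e-05) and had -0.59 in HCT116, given without a test, which became -0.39 with upper-quartile scaling.

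Other imprinted genes moved in both directions too. Of 24 other genes listed as paternally expressed, 12 were tested in MCF10A, and 4 were called higher and 1 lower, beside 26.2% and 29.2% of all genes. The median log2 fold change was 0.30 beside 0.0035 over all genes. SNHG14, the long host transcript of the Prader-Willi region, rose from 88.5 ± 3.58 to 189 ± 4.48 CPM in MCF10A (1.08, SE 0.047, adjusted p = 3.7e-17; SD, n = 3 each). It was at 1.48 ± 0.573 CPM (SD, n = 3) in HCT116 NIR libraries. SNRPN, a splicing protein gene that shares exons with SNHG14, rose by 1.60 (SE 0.333, adjusted p = 0.00018) in MCF10A from a low level of 0.799 ± 0.229 CPM (SD, n = 3) and had 0 counts in HCT116. Reads of SNRPN, SNURF and SNHG14 may be shared. KCNQ1OT1, the antisense RNA that silences its domain on chromosome 11, rose in MCF10A (0.87, SE 0.101, adjusted p = 2.4e-08) and in mixed cultures (0.58, SE 0.109, adjusted p = 0.00014). INPP5F, an inositol phosphatase gene with an imprinted isoform, fell in MCF10A (-0.39, SE 0.081, adjusted p = 0.00016) and in mixed cultures (-0.64, SE 0.070, adjusted p = 1.2e-07). In mixed cultures 3 of 12 were higher and 1 lower, beside 24.0% and 25.4% of all genes, with a median of 0.08 beside 0.012. NAP1L5, a nucleosome assembly protein-like gene, rose there by 0.73 (SE 0.149, adjusted p = 0.00033) and had -0.42 (adjusted p = 0.085) in MCF10A.

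Of 25 other genes listed as maternally expressed, 15 were tested in MCF10A, with 6 higher and 4 lower, beside 55.4% of all genes called. The list takes in genes reported as imprinted in some tissues only, such as PPP1R9A, and parental copies were not told apart here. In mixed cultures 18 were tested, with 6 higher and 3 lower, beside 49.4%. The medians were 0.11 and 0.15, beside 0.0035 and 0.012 over all genes. CPA4, a carboxypeptidase gene on chromosome 7, rose from 32.1 ± 4.31 to 80.9 ± 11.5 CPM in MCF10A (1.31, SE 0.085, adjusted p = 2.2e-13; SD, n = 3 each). In mixed cultures CPA4 rose from 14.5 ± 0.507 to 226 ± 21.2 CPM (3.93, SE 0.078, adjusted p = 7.1e-19; SD, n = 3 each). CDKN1C encodes the cyclin-dependent kinase inhibitor p57. It fell from 11.2 ± 2.64 to 2.83 ± 0.214 CPM in mixed cultures (-2.02, SE 0.179, adjusted p = 6.2e-09; SD, n = 3 each) and had -2.52 in HCT116 as a description, close in size to PEG10. Its MCF10A value of -0.72 (SE 0.284, adjusted p = 0.034) lost its call without MCF10A NIR replicate 1 (-0.43, adjusted p = 0.27), without MCF10A IR replicate 3 (-0.56, adjusted p = 0.14) and with upper-quartile scaling (-0.63, adjusted p = 0.062). SLC22A18, a membrane transporter gene beside CDKN1C, rose in MCF10A (1.11, SE 0.220, adjusted p = 9.8e-05) and did not pass in mixed cultures (-0.10, adjusted p = 0.56). TP73, a transcription factor gene, fell in mixed cultures (-0.49, SE 0.097, adjusted p = 0.00025) and in MCF10A (-0.92, SE 0.287, adjusted p = 0.0076). The MCF10A call was lost without MCF10A NIR replicate 3 (-0.66), MCF10A IR replicate 1 (-0.76) or MCF10A IR replicate 3 (-0.76).

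**Figure D4:**
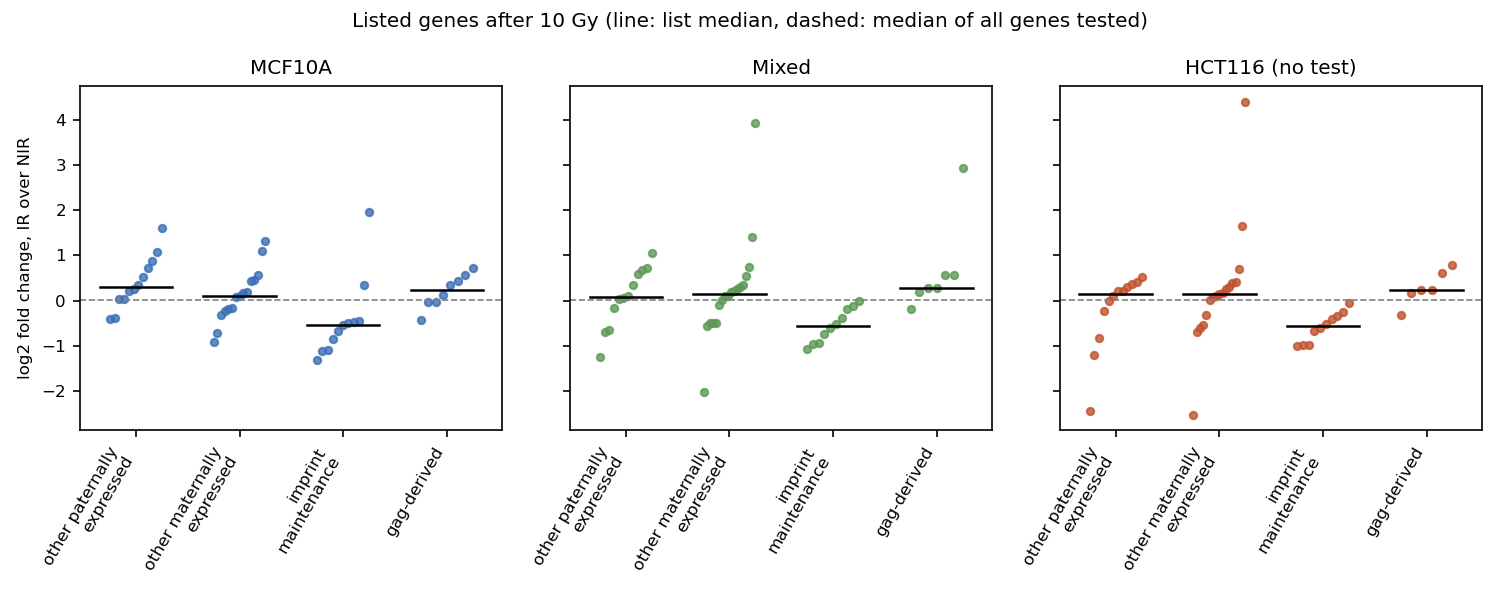
Log2 fold change after irradiation of each tested gene in the lists of other paternally expressed genes, other maternally expressed genes, imprint maintenance factors and gag-derived genes, in MCF10A, mixed and HCT116 cultures. The imprint maintenance factors lie mostly below 0 (medians -0.53 in MCF10A and -0.56 in mixed cultures), and the paternal and maternal lists spread to both sides.

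Genes that maintain imprints mostly fell. Of 11 listed, all 11 were tested in MCF10A, with 9 lower and 2 higher, beside 29.2% of all genes lower and 26.2% higher. In mixed cultures 10 were tested, with 8 lower and 0 higher, beside 25.4% and 24.0%. The medians were -0.53 and -0.56 beside 0.0035 and 0.012 over all genes. UHRF1, which brings the maintenance methyltransferase to newly copied DNA, fell from 153 ± 3.25 to 62.3 ± 1.94 CPM in MCF10A (-1.32, SE 0.049, adjusted p = 1.3e-18; SD, n = 3 each). In mixed cultures it fell by 1.07 on the log2 scale (SE 0.067, adjusted p = 2.6e-11). DNMT1, the maintenance methyltransferase itself, had -0.86 in MCF10A (SE 0.045, adjusted p = 1.9e-15) and -0.97 in mixed cultures (SE 0.061, adjusted p = 3.1e-11). HELLS, a chromatin remodeller needed for DNA methylation, had -1.10 (SE 0.054, adjusted p = 6.3e-16) and -0.93 (SE 0.074, adjusted p = 1.2e-09). DNMT3B, a de novo methyltransferase, had -1.12 (SE 0.167, adjusted p = 1.6e-06) and -0.52 (SE 0.075, adjusted p = 7e-06). The 2 that rose in MCF10A were ZFP57 and DNMT3A. ZFP57, a zinc finger protein that binds imprinted control regions, rose by 1.96 (SE 0.404, adjusted p = 0.00015) from 0.509 ± 0.116 CPM (SD, n = 3) and had 0 counts in HCT116. DNMT3A, a de novo methyltransferase named after its values were seen, rose by 0.34 (SE 0.094, adjusted p = 0.0032). UHRF1, DNMT1 and HELLS are also known as genes of dividing cells, and cell cycle state was not measured.

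PEG10 is one of a group of human genes derived from retrotransposon gag sequences, and most of the others called were higher after irradiation. Of 17 listed, 8 were tested in MCF10A, with 4 higher and 1 lower, beside 26.2% and 29.2% of all genes. In mixed cultures 7 were tested, with 5 higher and 1 lower, beside 24.0% and 25.4%. PNMA8A, among the 5, passed the filter on low counts only through the irradiated libraries, where it is high, so its call carries no weight. RTL8C rose by 0.58 (SE 0.073, adjusted p = 1.3e-07) in MCF10A and 0.57 (SE 0.098, adjusted p = 5.4e-05) in mixed cultures. RTL8A rose in mixed cultures (0.27, SE 0.089, adjusted p = 0.016), a call lost without mixed NIR replicate 1 (0.23), mixed IR replicate 2 (0.24) or mixed IR replicate 3 (0.23). RTL8A, RTL8B and RTL8C are near-identical, so reads may have been split among them. RTL10 rose from 36.4 ± 3.06 to 55.1 ± 4.21 CPM in mixed cultures (0.57, SE 0.080, adjusted p = 4.4e-06; SD, n = 3 each) and had -0.02 (adjusted p = 0.82) in MCF10A. PNMA8A rose by 0.72 (SE 0.099, adjusted p = 4.7e-07) in MCF10A, from 12.7 ± 0.916 CPM, and LDOC1 by 0.44 (SE 0.079, adjusted p = 2.8e-05), from 26.7 ± 0.980 CPM (SD, n = 3 each). Both were at 0 in HCT116 NIR libraries. PNMA8A in mixed cultures went from 0.0616 to 0.496 CPM, and the basal marker sum was higher in the same libraries, whose part in the result was not tested. The genes called lower, RTL8B in MCF10A (-0.42, adjusted p = 0.037) and PNMA1 in mixed cultures (-0.19, adjusted p = 0.035), are named after their values were seen.

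The genes whose levels followed PEG10 most closely were found by Pearson's r of log2(CPM + 0.5). Over all 18 libraries and 10913 genes they were CDCA4 (r = 0.992), TCF19 (0.989), PI4K2B (0.984), PHTF2 (0.979) and SGCE (0.979). TCF19 went from 40.9 to 24.8 CPM in MCF10A, from 37.5 to 11.3 CPM in mixed cultures and from 33.0 to 9.80 CPM in HCT116. Over the 12 HCT116 and mixed libraries and 10294 genes they were ASF1B (0.998), KIFC1 (0.997), SLC37A4 (0.997), CEP131 (0.996) and JADE1 (0.995), and SGCE ranked 406 with r = 0.979. The points fall into groups by line and irradiation, so each r mostly follows group means, and it is given as a description. With a pseudocount of 5, 4 of the 5 genes stayed in each list, and with Spearman's rho 1 and 2 did. SGCE, the head-to-head neighbour, ranked 5 over all libraries and 406 within the HCT116 and mixed libraries, with r = 0.979 in both. Its likeness to PEG10 was about the same, and more genes lay above it in the second set.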

How the data were processed

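Poly(A)-selected RNA of 18 cultures was sequenced with a stranded kit, per the labels' protocols. The authors deposited 1 table of raw counts per gene symbol for each library. Reads were processed with fastp, STAR and featureCounts against GRCh38, per the submitters' processing notes. Versions, annotation and strand setting are not given in the sources used here. How reads of overlapping genes were assigned was not tested.

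Levels are counts per 1000000 of the library total, with the mean and SD over 3 libraries. Each comparison was fitted over all genes with edgeR 4.0.16 in R 4.3.3: TMM scaling, filterByExpr, the 2-sided quasi-likelihood test, and Benjamini-Hochberg adjustment, with calls at an adjusted p under 0.05. The SE of a log2 fold change is its size divided by the square root of F. The response difference is an interaction term. The tests were checked on simulated counts: in the MCF10A comparison (11762 genes) 100% of changes of 1 log2 unit were recovered and 4.8% of calls were false, and in the response difference (12904 genes) 96% and 6.7%. The simulation left out genes at low counts, gave all genes the same small spread and changed only a few of them. Its rates therefore do not cover calls at low counts or with a wider spread between libraries. Alternatives were DESeq2 1.42.0, RLE and upper-quartile factors, no filter, halved counts, removal of mitochondrially encoded genes, a replicate block and leaving out each library. Gene positions come from GENCODE on GRCh38.

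The 10 members and all gene lists were chosen with earlier results of these data known. All 10 members are named. From each list, up to 3 called genes per tested irradiation comparison are named, those with the largest absolute log2 fold change among genes with a mean of at least 1 CPM in the higher group. Patterns like PEG10 are the 5 genes with the highest r among genes with a mean of at least 10 CPM in 1 of the groups used. The lists of chromosome 7 neighbours and of other imprinted genes share some members. Replicates differed by more than counting noise, and all 18 libraries were kept. One planned check of a cell line label is not reported here.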

Additional observations from a re-analysis of the deposited data

Results flagged for a closer look

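Over all genes, 33.8% had a response to irradiation that differed between mixed and MCF10A cultures by the test of the difference itself (edgeR quasi-likelihood, adjusted over all genes). The 14 genes that follow are those among the members and the list genes named by the rule, and other listed genes were called too. Each value is the log2 fold change of mixed cultures minus that of MCF10A cultures. Among the members, PEG10 had -1.23 (adjusted p = 3.5e-10) and SGCE had -0.60 (0.001), and both fell in both cultures. H19 had 2.42 (0.004) and MEST 0.85 (7e-05), and both fell in MCF10A and did not pass in mixed cultures.

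Among other imprinted genes, CPA4 had 2.67 (2.4e-13), BLCAP 1.03 (3.1e-10) and NAP1L5 1.2 (0.00057). SLC22A18 had -1.15 (0.00037) and CDKN1C -1.25 (0.0048). Among chromosome 7 neighbours, PON2 had 0.26 (0.0085). Of the imprint maintenance factors, DNMT3B had 0.67 (0.0064) and UHRF1 0.30 (0.0064), which are smaller falls in mixed cultures than in MCF10A. In all 4 of 11 factors were called, all on the higher side, and the others were SETDB1 (0.40, 0.0011) and ZNF445 (0.36, 0.0041). PNMA8A had 2.25 (0.00038) and RTL10 0.65 (7.4e-05) among the gag-derived genes, where 3 of 9 were on the higher side and 2 on the lower. The others were RTL6 on the higher side and PNMA1 (-0.49, 0.00025) and RTL5 (-2.40, 0.049) on the lower. RTL5 was at 0.0196 CPM in MCF10A NIR and 0.161 CPM in MCF10A IR libraries, too low to test there. Its difference rests on those few counts, and its own response in mixed cultures (0.28, adjusted p = 0.13) did not pass. PNMA8A was at 0 in HCT116 NIR, 0.0616 CPM in mixed NIR and 0.496 CPM in mixed IR libraries. Its difference rests on the mixed response at those few counts, so its call, among the 3 on the higher side, carries no weight. The calls for PON2 and UHRF1 depended on the scaling, as given with the alternatives.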

How the results depend on the processing

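The calls of PEG10 in MCF10A, in mixed cultures and for the response difference were kept under every alternative run. Without each library in turn its log2 fold change stayed between -0.81 and -0.77 in MCF10A, between -2.15 and -2.0 in mixed cultures and between -1.29 and -1.15 for the difference, and in HCT116 between -2.59 and -2.51. The members called numbered 4 to 5, 3 to 4 and 4 to 5 in these 3 tests. With replicate number as a block, no call of a member or of a gene named by the rule changed. The 114 values recomputed also take in totals of called genes and values given as a description, which hold no call. Over all genes the calls went from 8347 to 8050 in mixed cultures and from 6129 to 5805 for the difference. PEG10 had -0.79, -2.07 and -1.23. No pairing of libraries by number was seen: residuals of the same number correlated between -0.217 and 0.238, and 0 of 15 pairs of groups had all values over 0.1. With 3 libraries per group, weak pairing could be missed by this check.

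Scaling moved the balance of calls. For the response difference 57.8% of called genes were on the higher side, against 46.4% with RLE factors, 41.2% with upper-quartile factors, 46.0% with DESeq2 and 38.2% with counts halved. Upper-quartile factors moved the higher share from 47.4 to 57.5% in MCF10A, from 51.3 to 61.6% for mixed NIR against MCF10A NIR, where the median of all genes went from 0.04 to 0.22, and from 51.8 to 62.4% for HCT116 NIR against MCF10A NIR, from 0.05 to 0.25. The PON2 and UHRF1 response differences did not pass with RLE (0.17 and 0.21), upper-quartile (0.14 and 0.17), DESeq2 (0.17 and 0.21) or halved counts (0.11 and 0.15). The cause was not tested. CPM on TMM-scaled library sizes moved 14 of 60 member levels by more than 1 SD. Depth limits NDN, DLK1, MEG3 and, in MCF10A, IGF2 and H19.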
